A study of Mus musculus with 8 samples.

Results

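The secreted Wnt antagonists are the 9 mouse genes Sfrp1, Sfrp2, Sfrp4, Sfrp5, Frzb, Dkk1, Dkk2, Dkk3 and Wif1, taken by symbol from the 55358 genes of the series. Their levels were measured by RNA sequencing in cultured embryonic fibroblasts of the mouse, a connective-tissue cell type, that had or lacked the RNA-binding protein Arid5a and were or were not given the cytokine interleukin 6 (IL-6). Arid5a-/- (KO) fibroblasts with 100 ng/ml IL-6 for 24 h, KO fibroblasts without IL-6, wild-type (WT) fibroblasts with 100 ng/ml IL-6 for 24 h and WT fibroblasts without IL-6 had 2 libraries each. The labels do not say which part of Arid5a was removed, how many embryos or lines stood behind a genotype, or whether the libraries of a group were separate cultures, so the p-values rest on library-to-library spread that may be purely technical. The comparisons share groups: untreated WT, for example, stands in both the IL-6 comparison within WT and the untreated genotype comparison.

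Wnt proteins signal by binding a Frizzled receptor and an LRP5 or LRP6 coreceptor, which stabilises beta-catenin and turns on target genes. Secreted antagonists act outside the cell in different ways. The secreted Frizzled-related proteins, among them Frzb, carry a cysteine-rich domain like that of Frizzled, and with Wif1 they bind Wnt proteins themselves. Dkk1 and Dkk2 bind LRP5 and LRP6, with Kremen proteins as further receptors, while Dkk3 is a divergent relative that is not a classical LRP inhibitor. In fibroblasts and mesenchyme several of these genes serve as markers of position or differentiation state, and some are part of the feedback on Wnt signalling.

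Levels are FPKM (fragments per kilobase of transcript, scaled to the mapped fragments of the library) summed over the transcripts of a gene, so levels can be compared between genes. Changes are log2 differences of FPKM + 1 with their SE, a scale that understates the fold of low genes, and a change passed at an adjusted p below 0.05 over the 13693 genes tested. Total FPKM per library was 536816 to 584995, the depth read from the steps of low values was 36900000 to 46900000 fragments, and 12570 to 12699 genes reached 1 FPKM. Arid5a stood at 8.47 and 8.15 FPKM in KO with IL-6, 5.51 and 6.85 FPKM in untreated KO, 30.9 and 31.0 in WT with IL-6, and 18.7 and 15.9 FPKM in untreated WT. The KO libraries were thus lower than the WT libraries without being free of the transcript.

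Of the 9 genes, 5 passed the expression filter of 1 FPKM in at least 2 libraries, namely Sfrp1, Sfrp2, Sfrp4, Dkk2 and Dkk3. Sfrp4 passed through its KO libraries alone and Dkk3 through its WT libraries alone. The other 4 were at the floor of the measurement. Frzb, first found in cartilage, stood at 0.0833 and 0.132 FPKM in KO with IL-6, 0.163 and 0.0409 FPKM in untreated KO, 0 and 0.0252 in WT with IL-6, and 0.0756 and 0.0690 FPKM in untreated WT. Those values stand for at most 17.9 fragments in a library, and the KO and WT values overlapped. Wif1 was listed at 0 in 3 of the 4 KO libraries and at 0.0379 FPKM in library 1 of KO with IL-6. It lay between 0.0350 and 0.0591 FPKM in the 4 WT libraries, or about 2.0 to 4.99 fragments, so the genotypes overlapped. Sfrp5 was listed at 0 in 7 libraries and at 0.0141 FPKM in 1 untreated KO library, which is about 1.0 fragment. Dkk1, the founding Dickkopf gene, was listed at 0 in all 8 libraries.

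The 9 genes are spread over the genome (GENCODE M21 on GRCm38) and are all protein-coding. Sfrp1 lies on chromosome 8 (23411502 to 23449632, plus strand), Sfrp4 on chromosome 13 (19623104 to 19632994, plus strand) and Dkk3 on chromosome 7 (112116017 to 112159057, minus strand). Sfrp2 (83766321 to 83774316) and Dkk2 (132085292 to 132180304) are both on the plus strand of chromosome 3. Sfrp2 overlaps the antisense gene Gm26771 at its far end. No source used here says whether strand entered the counting, so reads from the shared stretch (83773853 to 83774316) cannot be told apart. Gm26771 itself stood at 0.0639 to 0.663 FPKM, highest, like Sfrp2, in untreated WT (0.663 and 0.532 FPKM). No other member overlaps an annotated gene.

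Sfrp2 and Dkk2 were the members that fell most with IL-6 in WT, and their promoters are shown for that reason. RefSeq's promoter table on GRCm38.p6 held 6 of the 9 genes; Sfrp1, Sfrp4 and Dkk3 were not among them. The 250 bases before the transcription start are given 5′ to 3′ on the plus strand, for Sfrp2 at chr3:83766071-83766320 and for Dkk2 at chr3:132085042-132085291, with the TATA-box core TATAAA in capitals.
Sfrp2: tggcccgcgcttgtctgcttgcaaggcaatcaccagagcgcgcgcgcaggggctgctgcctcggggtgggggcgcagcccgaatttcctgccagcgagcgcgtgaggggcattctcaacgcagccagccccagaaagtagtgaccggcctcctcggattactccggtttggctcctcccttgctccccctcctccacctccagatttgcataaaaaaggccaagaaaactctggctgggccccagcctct
Dkk2: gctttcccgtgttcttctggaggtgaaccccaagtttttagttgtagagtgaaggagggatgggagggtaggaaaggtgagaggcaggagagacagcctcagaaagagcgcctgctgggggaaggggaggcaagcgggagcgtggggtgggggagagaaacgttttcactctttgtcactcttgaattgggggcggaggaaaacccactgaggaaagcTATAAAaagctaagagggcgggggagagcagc
The Dkk2 window held TATAAA once, 32 to 27 bases before the start, and the Sfrp2 window did not hold it. On either strand, TATAAA occurs in 12.4% of 32851 windows of this length. Neither window held the STAT-type motif TTCNNNGAA (7.02% of windows) or the TCF/LEF core CTTTGA (13.8% of windows), searched on both strands. The Sfrp2 window was 63.6% G or C with 16 CG dinucleotides, and that of Dkk2 55.6% with 7, against a median of 6 over all windows. TATAAA was added to the search after these sequences had been seen.

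Untreated KO and WT fibroblasts expressed different sets of antagonists. KO cells held Sfrp1, Sfrp2 and Sfrp4 with almost no Dickkopf transcript, and WT cells held Dkk3, Sfrp2 and Dkk2 with little Sfrp1 and almost no Sfrp4. All 5 tested members differed between the genotypes without IL-6, 2 higher and 3 lower in KO, where 71% of all genes differed, 36.4% higher and 34.5% lower. With so wide a background the count itself says little about the antagonists, and their levels and sizes of change are what the comparison adds. Sfrp4 entered the test through its KO libraries alone and Dkk3 through its WT libraries alone. The filter itself thus favoured a genotype difference of both, and their calls add nothing to the count.

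Sfrp1, a broad Wnt-binding antagonist, was the leading member in KO. It stood at 29.5 and 29.1 FPKM in untreated KO libraries, against 5.09 and 5.21 FPKM in untreated WT libraries. Both KO libraries lay far above both WT libraries, a level 5.68 times as high (2.30 ± 0.071, adjusted p = 9.34e-08).

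Sfrp4, a Wnt-binding antagonist known from bone and endometrial stroma, stood at 10.4 and 11.6 FPKM in untreated KO, against 0.194 and 0.195 FPKM in untreated WT. The WT values rest on about 18.0 fragments in each library. The KO mean was 56.5 times the WT mean, which is a change of 3.32 ± 0.097 on the FPKM + 1 scale (adjusted p = 6.73e-08).

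Sfrp2, an antagonist of mesenchyme that some studies find to promote Wnt signalling instead, went the other way. It was at 15.2 and 17.4 FPKM in untreated KO, against 37.6 and 34.4 FPKM in untreated WT. KO cells thus held 45.2% of the WT level, and the groups did not overlap (-1.10 ± 0.13, adjusted p = 0.00016).

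Dkk2, which binds LRP5 and LRP6, was at 1.18 and 1.23 FPKM in untreated KO, against 7.23 and 8.37 FPKM in untreated WT, or 15.5% of the WT level (-1.99 ± 0.087, adjusted p = 5.92e-07). Dkk3, the most abundant antagonist of WT cells, was at 0.355 and 0.244 FPKM in untreated KO, against 44.4 and 42.5 FPKM in untreated WT. Its KO level was 0.691% of that in WT, a change of -5.10 ± 0.068 (adjusted p = 1.64e-09). About 41.8 and 31.9 fragments stood behind the KO values and 5712 and 5859 behind the WT values. The change of Dkk3 was larger in size than those of 99.4% of the genes tested, and that of Sfrp4 than 97.9%. Because the filter itself favoured a genotype difference of both, these 2 ranks are description only. The change of Sfrp1 was larger than 95.1%, that of Dkk2 than 93.7% and that of Sfrp2 than 83.8%.

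**Figure D1:**
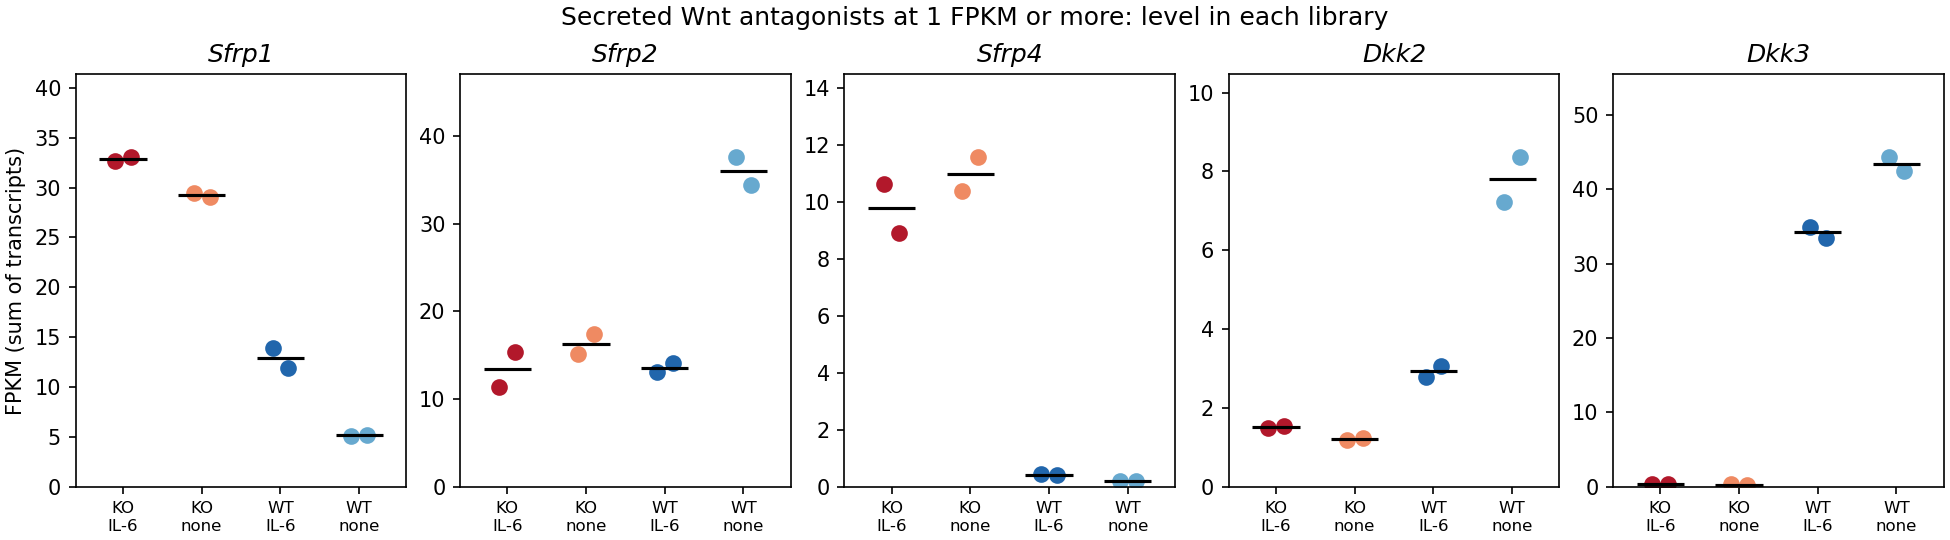
FPKM of the 5 antagonist genes that passed the expression filter, in each of the 8 libraries; points are libraries, lines are the means of the 2 libraries of a group, and each panel has its own axis from 0. Sfrp1 and Sfrp4 were highest in KO, Dkk2 and Dkk3 in WT, and Sfrp2 stood apart in untreated WT at 37.6 and 34.4 FPKM.

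Under IL-6 the genotypes again differed in 4 of 5 members, 2 higher and 2 lower in KO, where 71.7% of all genes differed, 36.9% higher and 34.8% lower. Of these members, Sfrp4 and Dkk3 again owed their place in the test to the genotype in which they were high. Sfrp1 was at 32.6 and 33.1 FPKM in KO with IL-6, against 14.0 and 11.9 FPKM in WT with IL-6, a level 2.55 times as high (1.29 ± 0.071, adjusted p = 2.05e-06). Sfrp4 was at 10.6 and 8.92 FPKM in KO with IL-6, against 0.436 and 0.399 FPKM in WT with IL-6 (2.92 ± 0.097, adjusted p = 1.24e-07). Both were clearly higher in KO, with no overlap, while both Dickkopf genes were lower. Dkk2 was at 1.49 and 1.53 FPKM in KO with IL-6, against 2.80 and 3.05 FPKM in WT with IL-6, or 51.7% of the WT level (-0.64 ± 0.087, adjusted p = 0.000319). Dkk3 was at 0.337 and 0.382 FPKM in KO with IL-6, against 35.0 and 33.4 FPKM in WT with IL-6 (-4.69 ± 0.068, adjusted p = 2.1e-09).

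The genotype difference of Sfrp2 did not pass under IL-6. It was at 11.4 and 15.4 FPKM in KO with IL-6, against 13.1 and 14.1 FPKM in WT with IL-6, and the groups overlapped. The change was -0.03 ± 0.13 (adjusted p = 0.833), with a 95% interval of -0.34 to 0.27. That interval does not contain the difference of -1.10 seen without IL-6.

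The KO and WT cells also differed in the markers of other tissues and of sex, beside all of these genotype differences. All 9 mesothelial markers were higher in KO, with a summed level of 1897 to 1949 FPKM in KO libraries and 38.9 to 53.2 FPKM in WT libraries, and the defining marker Wt1 was listed at 0 in all 4 WT libraries. All 7 tested limb-mesenchyme markers (of 8) were lower in KO, with sums of 18.7 to 20.5 FPKM in KO and 259.1 to 292.8 FPKM in WT. Of the sex markers, Xist was at 55.2 to 61.0 FPKM in KO and at most 0.00562 FPKM in WT. Ddx3y, Uty, Kdm5d and Eif2s3y were at 0 to 0.0651 FPKM in KO and 9.92 to 62.8 FPKM in WT. This is the pattern of female KO and male WT cells. Arid5a genotype, sex and the tissue marker differences cannot be told apart in these libraries. In bulk RNA, fewer cells of a type and less RNA per cell cannot be told apart either. The 9 fibroblast markers summed to 4391 to 4652 FPKM in KO and 3031 to 3879 FPKM in WT, a sum carried by Col1a1, Col1a2, Col3a1, Vim and Fn1. In untreated KO 3 of them were higher and 5 lower than in untreated WT, and under IL-6 4 were higher and 5 lower. Pdgfra (7.62 to 8.85 FPKM in KO and 33.1 to 52.4 FPKM in WT), Pdgfrb (6.97 to 7.40 FPKM in KO and 48.1 to 50.3 FPKM in WT), Thy1 (0.414 to 0.919 FPKM in KO and 2.61 to 3.49 FPKM in WT) and Lum (0.150 to 0.321 FPKM in KO and 3.19 to 3.68 FPKM in WT) all had lower levels in KO.

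Of the remaining lists, smooth-muscle markers summed to 556.7 to 609.6 FPKM in KO and 48.9 to 115.6 FPKM in WT, a sum carried by Acta2 and Tagln. Of the 3 tested, 2 were higher and 1 lower in KO; Cnn1 stood at 2.69 to 3.87 FPKM in KO and 7.16 to 11.1 FPKM in WT. Epithelial markers summed to 67.7 to 72.8 FPKM in KO and 0.618 to 1.19 FPKM in WT. Krt14 (61.4 to 66.0 FPKM in KO, 0 in WT) and Cdh1 carried the KO sum. Epcam was at 0.421 to 0.662 FPKM over both genotypes, and Krt5 was listed at 0. Endothelial markers summed to 10.8 to 12.0 FPKM in KO and 0.0689 to 0.181 FPKM in WT, with the KO sum carried by Tek and Kdr. Pecam1, Cdh5 and Tie1 were at most 0.105 FPKM in any library. The 2 tested markers of each list were higher in KO. Adipocyte markers summed to 6.58 to 8.70 FPKM in KO and 6.98 to 33.2 FPKM in WT, and the 2 tested went opposite ways. Pparg was at 5.64 to 7.37 FPKM in KO and 0.0943 to 0.228 FPKM in WT, and Fabp4 at 0.0338 to 0.187 FPKM in KO and 6.44 to 32.7 FPKM in WT. Cartilage markers (0.985 to 1.35 FPKM in KO and 3.13 to 4.20 FPKM in WT), haematopoietic markers (1.77 to 2.26 FPKM in KO and 2.31 to 3.49 FPKM in WT) and glial markers (0.677 to 1.12 FPKM in KO and 0.588 to 1.05 FPKM in WT) were low throughout.

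In WT fibroblasts, 24 h of IL-6 moved 4 of the 5 tested antagonists, Sfrp1 up and Sfrp2, Dkk2 and Dkk3 down. The background in this comparison was 15.7% of genes, 8.3% higher and 7.41% lower. Socs3, a feedback inhibitor of IL-6 signalling, rose in the same cells by 1.35 ± 0.060 (adjusted p = 2.87e-05). The changes of Sfrp1, Sfrp2 and Dkk2 were larger in size than those of 99.1%, 99.3% and 99.1% of the genes tested, and that of Dkk3 than 88.3%.

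Sfrp1 reached 14.0 and 11.9 FPKM in WT with IL-6, against 5.09 and 5.21 FPKM in untreated WT. The rise was 2.51-fold (1.17 ± 0.071, adjusted p = 8.12e-05) and left WT cells below either KO group. Sfrp2 fell to 13.1 and 14.1 FPKM in WT with IL-6, against 37.6 and 34.4 FPKM in untreated WT, so 37.7% of its level remained (-1.34 ± 0.13, adjusted p = 0.000705). For both genes the libraries of one condition lay clear of those of the other.

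Dkk2 fell to 2.80 and 3.05 FPKM in WT with IL-6, against 7.23 and 8.37 FPKM in untreated WT, or 37.5% of the untreated level (-1.16 ± 0.087, adjusted p = 0.000195). Dkk3 fell to 35.0 and 33.4 FPKM in WT with IL-6, against 44.4 and 42.5 FPKM in untreated WT, or 78.8% (-0.33 ± 0.068, adjusted p = 0.017). The Dkk3 call is the least secure of the 4: without any 1 of the 4 WT libraries its adjusted p was 0.0618 to 0.101, and with a pseudocount of 0.1 it was 0.153. Sfrp4 was at 0.436 and 0.399 FPKM in WT with IL-6 and 0.194 and 0.195 FPKM in untreated WT, about 28.0 to 29.9 against 18.0 fragments. A change of 0.25 ± 0.097 was not enough for a call (adjusted p = 0.14). With a pseudocount of 0.1, which weighs low levels more, the change was 0.81 and passed (adjusted p = 0.00874).

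Markers of other cell types moved in WT with IL-6 as well. Smooth-muscle markers summed to 48.9 to 54.5 FPKM in WT with IL-6 and 113.3 to 115.6 FPKM in untreated WT, and 2 of 3 tested fell. Adipocyte markers summed to 29.5 to 33.2 FPKM in WT with IL-6 and 6.98 to 7.94 FPKM in untreated WT, where 1 of 2 tested rose. The rise was that of Fabp4 alone, at 28.9 and 32.7 FPKM in WT with IL-6 and 6.44 and 7.45 FPKM in untreated WT. Pparg stayed at 0.0943 to 0.228 FPKM in WT. Of the 9 fibroblast markers, 2 rose and 4 fell with IL-6 in WT, and 1 of 9 mesothelial markers fell. The part of these marker changes in the antagonist changes was not tested. When all libraries were brought to equal totals, 34.8% of the calls over all genes were higher, against 52.8% as deposited, and 4 members were again called.

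**Figure D2:**
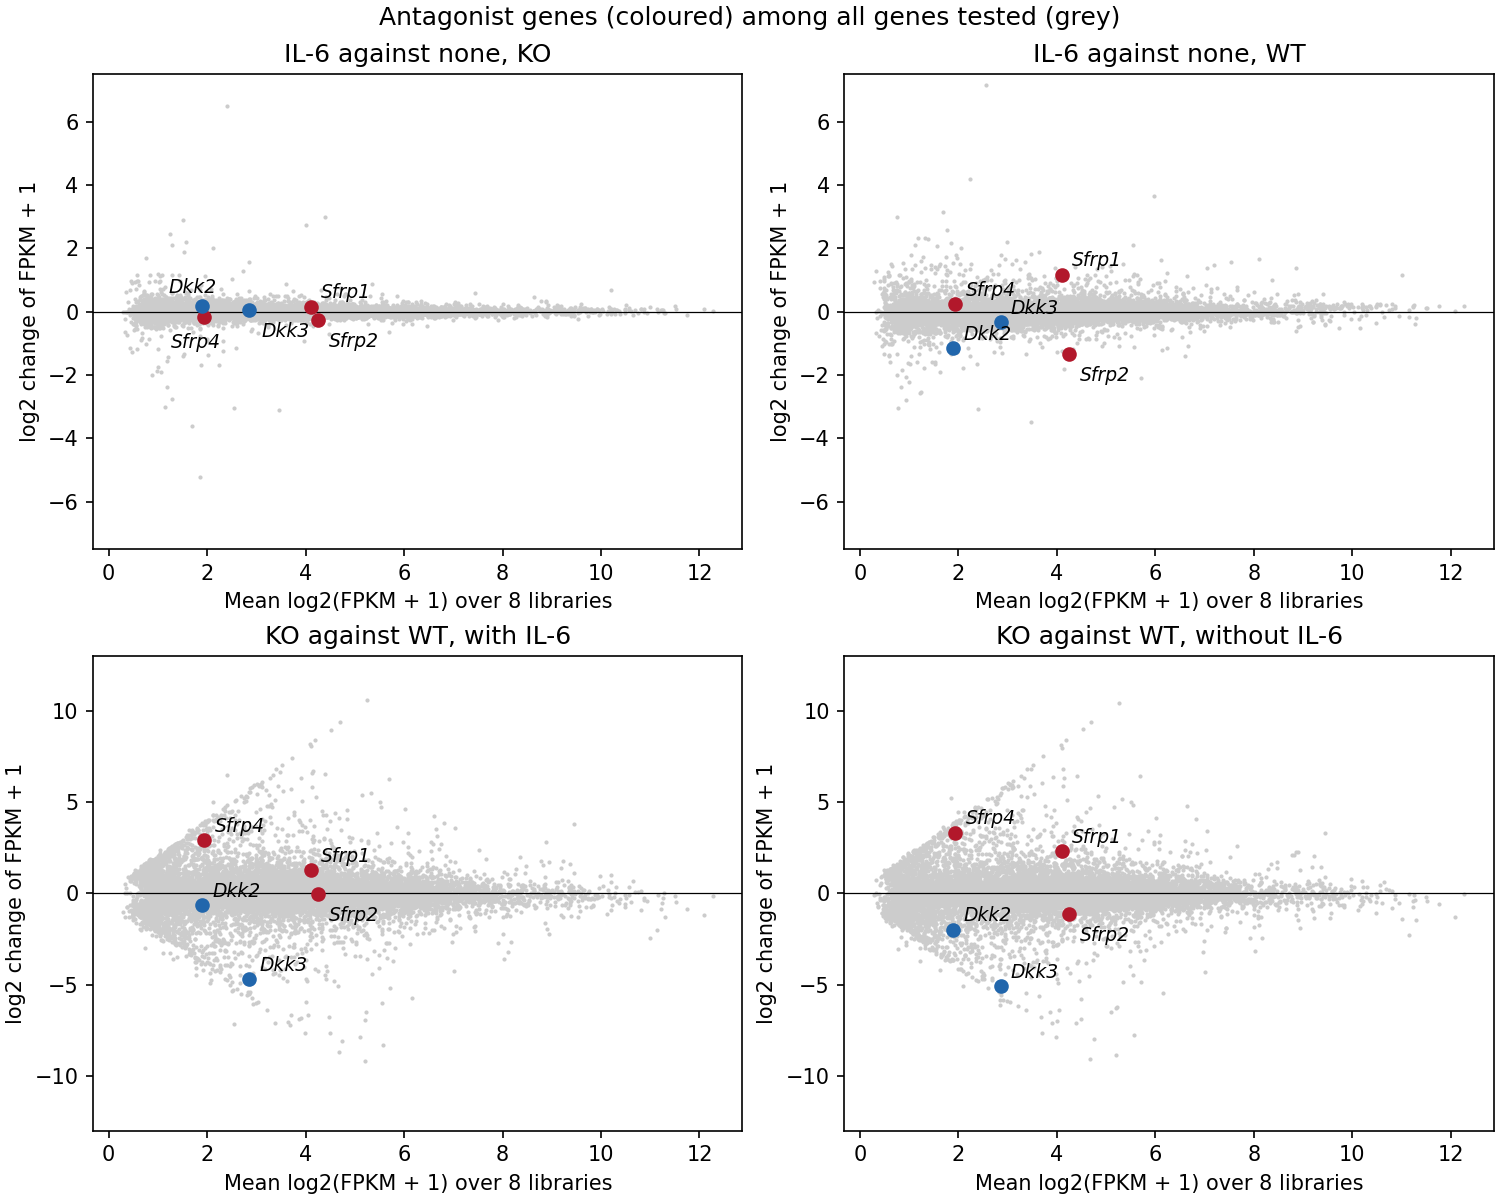
Log2 change of FPKM + 1 against the mean log2(FPKM + 1) over the 8 libraries for all 13693 genes tested (grey), with the antagonist genes in colour (red for Sfrp genes, blue for Dkk genes). Sfrp1, Sfrp2 and Dkk2 lie at the edges of the cloud for IL-6 in WT at 1.17, -1.34 and -1.16. For IL-6 in KO, where the cloud is narrower, they lie at 0.16, -0.27 and 0.19. The clouds of the genotype comparisons are wide.

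In KO fibroblasts no antagonist passed the test for IL-6. With limma 0 of 5 members were called, 0 of 5 had an unadjusted p below 0.05, and the background was 0.0219%, or 3 of 13693 genes (1025 at an unadjusted p below 0.05). The 3 genes, Igfbp3, Spp1 and Cebpd, all rose; they are named here after their values were seen. Sfrp1 was at 32.6 and 33.1 FPKM in KO with IL-6 and 29.5 and 29.1 FPKM in untreated KO. Those libraries did not overlap, but with a change of 0.16 ± 0.071 the gene was not called (adjusted p = 0.675, 95% interval -0.01 to 0.33).

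Sfrp2 was at 11.4 and 15.4 FPKM in KO with IL-6 and 15.2 and 17.4 FPKM in untreated KO, with overlapping groups (-0.27 ± 0.13, adjusted p = 0.705, 95% interval -0.58 to 0.03). Sfrp4 was at 10.6 and 8.92 FPKM in KO with IL-6 and 10.4 and 11.6 FPKM in untreated KO, which also overlapped (-0.16 ± 0.097, adjusted p = 0.79). For the Dickkopf genes the KO levels were low in either condition. Dkk2 was at 1.49 and 1.53 FPKM in KO with IL-6 and 1.18 and 1.23 FPKM in untreated KO, 0.19 ± 0.087 (adjusted p = 0.699, 95% interval -0.02 to 0.39). Dkk3 was at 0.337 and 0.382 FPKM in KO with IL-6 and 0.355 and 0.244 FPKM in untreated KO (0.07 ± 0.068, adjusted p = 0.885). No interval of a member in KO reached a change of 1 in either direction. For Dkk2 and Dkk3 the FPKM + 1 scale itself holds changes small at such low KO levels. Their intervals therefore do not exclude a large fold change. Changes in KO were small over all genes, with a median size of 0.057. In size, those of Sfrp1, Sfrp2 and Dkk2 exceeded 87.4%, 95.6% and 90.4% of the genes tested, and those of Sfrp4 and Dkk3 86.8% and 55.9%.

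Whether IL-6 acted differently on the genotypes was tested as the IL-6 change in KO minus that in WT, in which 6.06% of all genes were called, 2.54% higher and 3.52% lower. Sfrp1, Sfrp2 and Dkk2 passed, 3 of 5 members, 2 higher and 1 lower. The difference was -1.01 ± 0.10 for Sfrp1 (adjusted p = 0.00224), 1.07 ± 0.18 for Sfrp2 (adjusted p = 0.0186) and 1.35 ± 0.12 for Dkk2 (adjusted p = 0.0017). Dkk2 had estimates of opposite sign in the genotypes, 0.19 in KO and -1.16 in WT, of which the KO change did not pass. The Sfrp2 call ended without untreated KO library 1 or any 1 of the 4 WT libraries, with an adjusted p of 0.0547 to 0.0714, and without the expression filter (0.0778). The differences of Dkk3 (0.40 ± 0.096, adjusted p = 0.0568) and Sfrp4 (-0.40 ± 0.14, adjusted p = 0.146) did not pass. Dkk3 passed with equal totals (adjusted p = 0.04) or a pseudocount of 5 (0.0196), and Sfrp4 with a pseudocount of 0.1 (0.0347). A pseudocount of 5 holds the change of Dkk3 in KO small (0.016) because its KO level is so low. That pass rests on the WT change (-0.30) and cannot show that IL-6 acted differently on the genotypes.

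The IL-6 change of Socs3 was also smaller in KO, at 0.55 ± 0.060 (adjusted p = 0.0774), and its KO minus WT difference was -0.80 ± 0.085 (adjusted p = 0.00277). Starting levels differed too, since Dkk2 and Sfrp2 were lower and Sfrp1 higher in untreated KO than in untreated WT. Their part in the difference between the IL-6 changes was not tested.

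**Figure D3:**
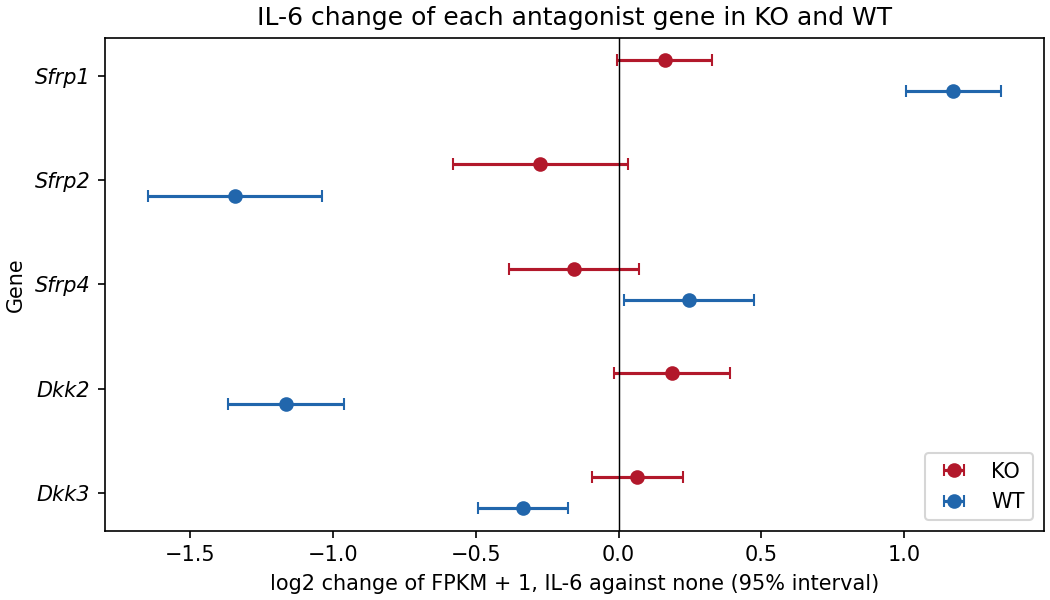
Change with IL-6 (log2 of FPKM + 1) of the 5 tested antagonist genes in KO (red) and WT (blue); points are the fitted changes and bars 95% intervals. The KO intervals of all 5 genes include 0, and those of Sfrp1, Sfrp2 and Dkk2 lie clear of the WT intervals.

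The genes differed in their order over the 4 groups. Sfrp1 ran from KO with IL-6 (32.9 ± 0.320 FPKM, SD, n = 2) and untreated KO (29.3 ± 0.311), which were not separated by the test, through WT with IL-6 (12.9 ± 1.48) to untreated WT (5.15 ± 0.0825). Sfrp4 was likewise higher in both KO groups, at 9.77 ± 1.20 FPKM with IL-6 and 11.0 ± 0.849 FPKM untreated, than in WT with IL-6 (0.417 ± 0.0263) or untreated WT (0.195 ± 0.00105), and neither pair within a genotype was separated. Dkk3 was higher in both WT groups, with 0.359 ± 0.0316 FPKM in KO with IL-6 and 0.300 ± 0.0781 FPKM in untreated KO, 34.2 ± 1.07 in WT with IL-6 and 43.4 ± 1.34 FPKM in untreated WT. Sfrp2 had 1 high group, untreated WT at 36.0 ± 2.27 FPKM, above KO with IL-6 (13.4 ± 2.85), untreated KO (16.3 ± 1.55) and WT with IL-6 (13.6 ± 0.693). Of those 3 lower groups, neither the KO groups nor the IL-6 groups differed beyond their spread. Dkk2 shared the order of Dkk3, with 1.51 ± 0.0298 FPKM in KO with IL-6, 1.21 ± 0.0367 FPKM in untreated KO, 2.92 ± 0.180 in WT with IL-6 and 7.80 ± 0.806 FPKM in untreated WT, and for both genes the KO groups were not separated.

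Summed over the 9 genes, the antagonist level was 58.0 ± 2.05 FPKM in KO with IL-6, 58.1 ± 1.97 FPKM in untreated KO, 64.1 ± 1.68 in WT with IL-6 and 92.7 ± 2.74 FPKM in untreated WT (SD, n = 2 each). The sum of untreated WT stood above all others, and those of the KO groups overlapped. The make-up of the sum differed between genotypes as well as its size. Sfrp1 held 56.7% of the sum in KO with IL-6, 50.4% in untreated KO, 20.1% in WT with IL-6 and only 5.56% in untreated WT. Dkk3 held 0.619%, 0.518%, 53.3% and 46.8% in the same groups, and Sfrp2 23.0%, 28.0%, 21.2% and 38.9%. The Dickkopf genes together made 1.87 ± 0.0614 FPKM in KO with IL-6, 1.51 ± 0.0414 FPKM in untreated KO, 37.1 ± 0.891 in WT with IL-6 and 51.2 ± 0.538 FPKM in untreated WT. These sums are a description and were not tested.

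**Figure D4:**
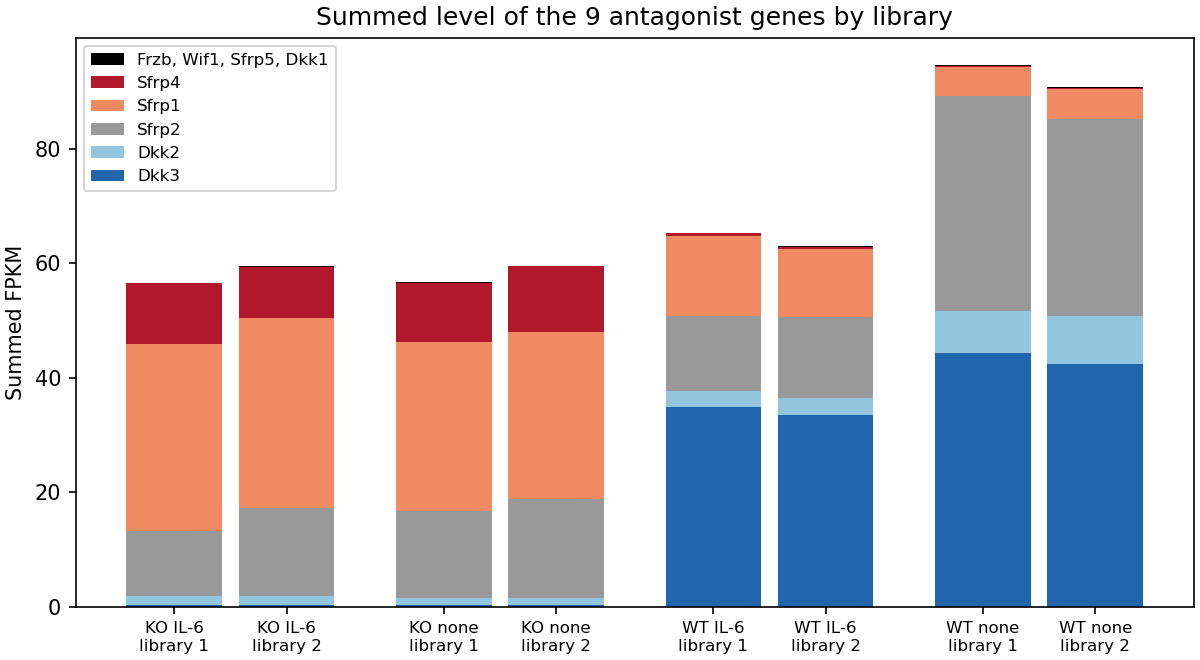
FPKM of the antagonist genes stacked in each of the 8 libraries, so that the bar height is their summed FPKM. KO libraries, at 56.6 to 59.5 FPKM, consist almost wholly of Sfrp1, Sfrp2 and Sfrp4, and WT libraries, at 62.9 to 94.6 FPKM, mainly of Dkk3 and Sfrp2, with more Sfrp1 under IL-6.

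The files list 17 transcripts for the 9 genes, and for Sfrp1, Dkk2 and Dkk3 only 1 each. Sfrp2 has a coding transcript, Sfrp2-201 (3 exons, 2003 nt), and 2 non-coding ones, Sfrp2-202 (600 nt) and Sfrp2-203 (382 nt). The coding transcript carried most of the level: 10.9 and 12.1 FPKM in KO with IL-6, 12.0 and 13.2 FPKM in untreated KO, 10.8 and 9.72 in WT with IL-6, and 32.0 and 28.3 FPKM in untreated WT. The spread of Sfrp2 in KO with IL-6 lay mainly in Sfrp2-202, which was at 0.442 FPKM in library 1 and 2.89 in library 2. Sfrp2-203 was listed at 0 in 3 libraries, 1 each of KO with IL-6, untreated KO and WT with IL-6. Such short transcripts share sequence with the coding one, so the split between them is uncertain.

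Taking Sfrp2-201 alone, an alternative added after the values were seen, left every call of Sfrp2 in place. Sfrp4 has 4 transcripts, all annotated as coding. Sfrp4-201 (6 exons, 1764 nt) was at 8.76 and 7.92 FPKM in KO with IL-6 and 8.04 and 9.47 FPKM in untreated KO, against 0.343 and 0.365 in WT with IL-6 and 0.134 and 0.103 FPKM in untreated WT. Sfrp4-204 was at 1.19 and 0.000613 FPKM in the 2 libraries of KO with IL-6, while untreated KO had 1.51 and 1.21. Its near absence from library 2 stands beside the lower gene sum of that library. There Sfrp4-201 and Sfrp4-203 were also lower than in library 1, but Sfrp4-202 was higher, at 0.547 FPKM against 0. The split between the Sfrp4 transcripts is likewise uncertain.

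**Figure D5:**
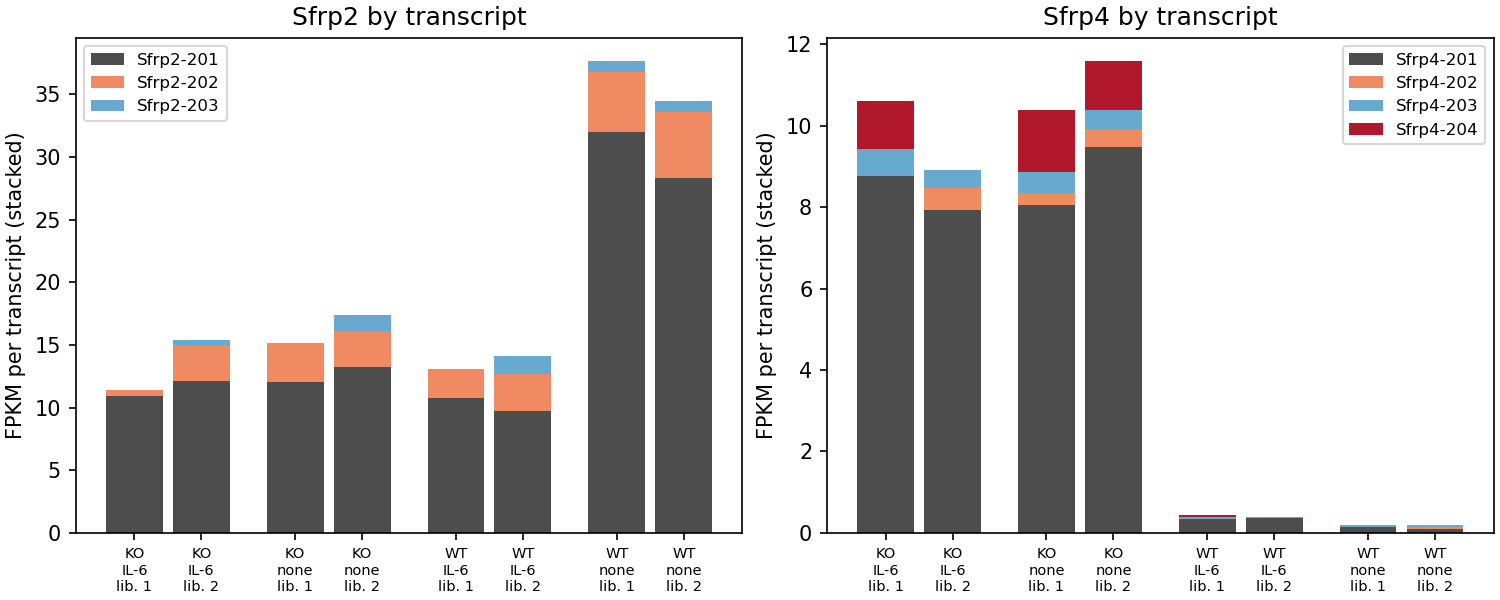
FPKM per transcript of Sfrp2 (left) and Sfrp4 (right), stacked in each of the 8 libraries. Sfrp2-201 and Sfrp4-201, the dark parts, make up most of every bar, and the other transcripts vary between libraries of 1 group.

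The partners of the antagonists were read from lists of Wnt pathway genes, whose counts stand against 15.7% of all genes called for IL-6 in WT and 71% between the untreated genotypes. Some listed genes passed the expression filter through KO or WT libraries alone, which favours a genotype difference. Among the receptors, Lrp5 and Lrp6, the coreceptors bound by Dkk1 and Dkk2, were expressed in all groups. Lrp6 was at 17.9 ± 0.00915 FPKM in KO with IL-6, 17.0 ± 0.0357 FPKM in untreated KO, 16.1 ± 0.998 in WT with IL-6 and 17.8 ± 0.803 FPKM in untreated WT, and no comparison passed. Lrp5 was higher in KO, by 0.35 ± 0.056 in the untreated cells (adjusted p = 0.000829) and by 0.22 ± 0.056 under IL-6 (adjusted p = 0.00816). Kremen1, a Dickkopf receptor, was lower in KO: it was at 7.01 ± 0.115 FPKM in KO with IL-6, 7.15 ± 0.164 FPKM in untreated KO, 18.9 ± 0.0136 in WT with IL-6 and 25.8 ± 0.711 FPKM in untreated WT. It fell with IL-6 in WT (-0.43 ± 0.048, adjusted p = 0.00133), and its KO difference was -1.71 ± 0.048 without IL-6 (adjusted p = 5.59e-08). Of the 14 receptor genes tested, 3 rose and 5 fell with IL-6 in WT, with Fzd1 falling most (-0.62 ± 0.038, adjusted p = 8.39e-05); 4 were higher and 6 lower in untreated KO than in untreated WT, a share like the 71% of all genes.

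Wnt ligands, which the Sfrp proteins and Wif1 bind, differed between the genotypes in all 9 tested without IL-6, 7 higher and 2 lower in KO, where 71% of all genes differed, 36.4% higher and 34.5% lower (median 1.15, against 0.01 over all genes). Wnt4 and Wnt2b passed the filter through KO libraries alone and Wnt10a through WT libraries alone. For them the filter itself favoured a genotype difference, which enters both the count and the median. Wnt10b, a canonical ligand, was at 1.39 ± 0.0273 FPKM in untreated KO and 56.8 ± 4.10 in untreated WT (-4.59 ± 0.065, adjusted p = 2.18e-09). Wnt5a, the main non-canonical ligand, was at 24.5 ± 0.215 FPKM in untreated KO and 4.63 ± 0.289 in untreated WT (2.18 ± 0.064, adjusted p = 6.74e-08). In WT, IL-6 raised 1 ligand gene, Wnt16 (1.67 ± 0.081, adjusted p = 4.02e-05), and lowered 5. Wnt16 was at 10.5 ± 0.746 FPKM in WT with IL-6 and 2.61 ± 0.120 FPKM in untreated WT.

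R-spondins amplify Wnt signals. With IL-6 in WT, 1 of the 6 tested genes of their axis rose, Rspo3 (1.10 ± 0.073, adjusted p = 0.000118), and none fell; in untreated KO, 1 was higher and 3 lower than in WT, again near the 71% of all genes. Of 4 tested genes that encode other extracellular inhibitors, 1 rose with IL-6 in WT, Igfbp4 (1.11 ± 0.060, adjusted p = 5.19e-05), and 1 fell, Apcdd1 (-0.83 ± 0.080, adjusted p = 0.000675). Igfbp4, an IGF carrier that also binds Wnt receptors, was at 450.4 ± 16.2 FPKM in untreated KO and 15.1 ± 0.440 in untreated WT (4.81 ± 0.060, adjusted p = 1.2e-09). Notum, which removes the lipid from Wnt proteins, was at 0.543 ± 0.0831 FPKM in untreated KO and 6.59 ± 0.611 in untreated WT (-2.30 ± 0.091, adjusted p = 3.5e-07). Notum, like Rspo2 and Rnf43 of the R-spondin axis, passed the filter through WT libraries alone. For these genes the filter itself favoured a genotype difference.

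Feedback and target genes fell with IL-6 in WT in 6 of 11 tested and rose in 2, where 7.41% of all genes fell and 8.3% rose (median -0.28, against 0.00 over all genes). Axin2, the most used read-out of beta-catenin signalling, was at 3.80 ± 0.298 FPKM in WT with IL-6 and 6.04 ± 0.371 FPKM in untreated WT (-0.55 ± 0.092, adjusted p = 0.00775). In untreated KO, 8 of the 11 were lower and 2 higher than in WT, where 34.5% of all genes were lower and 36.4% higher. Nkd2 passed the filter through WT libraries alone and Lef1 through untreated KO libraries alone. Nkd1 passed only with its untreated WT libraries. For these genes the filter itself favoured a genotype difference, and for Nkd1 also a fall with IL-6 in WT. Axin2 was at 0.981 ± 0.0210 FPKM in untreated KO (-1.83 ± 0.092, adjusted p = 1.29e-06). The IL-6 change of Axin2 in KO was 0.10 ± 0.092 (adjusted p = 0.864), and the difference between the genotypes' changes passed (0.65 ± 0.13, adjusted p = 0.0317). Other targets fell further in WT, among them the cyclin gene Ccnd1 (-1.30 ± 0.067, adjusted p = 4.25e-05). Of 17 intracellular components, 1 rose and 3 fell with IL-6 in WT, and Tcf7l2, a TCF factor, changed most (-0.59 ± 0.11, adjusted p = 0.0107). With IL-6 in KO, limma called no gene of any of these 6 lists. Only 3 of 13693 genes (0.0219%) were called there, so this count says little about the lists.

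Over the 8 libraries, the genes whose log2 levels followed a member most closely were named by Pearson correlation, as a description of 4 groups of 2. This correlation follows the shape of a pattern and not the size of its changes. Sfrp1 was followed most closely by Casp4 (r = 0.999), a caspase gene at 30.0 and 28.3 FPKM in KO with IL-6, 25.1 and 26.0 FPKM in untreated KO, 12.8 and 10.5 in WT with IL-6 and 4.86 and 5.31 FPKM in untreated WT. St3gal1, a sialyltransferase gene, was next (r = 0.999). These were among 20 genes that had an r above 0.99 with Sfrp1. For Dkk2 there were 9, of which the nearest were the clock gene Per3 (r = 0.998) and Rnd2 (r = 0.993). None reached 0.99 with Sfrp2, for which Ttc28 (r = 0.985) and Cat, encoding catalase (r = 0.981), came closest. Sfrp4 and Dkk3, with the widest genotype differences, had 933 and 759 such genes. Among the nearest were Tfg and Tex261 (both r = 0.999) for Sfrp4, and Pde8a (r = 0.9998) for Dkk3. Some of the named genes changed far less than their member. Tfg was at 72.2 to 76.3 FPKM in KO and 47.0 to 48.6 FPKM in WT, and Cat at 30.1 to 35.2 FPKM over all libraries.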

How the data were processed

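Total RNA of mouse embryonic fibroblasts was sequenced from TruSeq stranded mRNA libraries, per the labels' protocols. The authors deposited FPKM per transcript for 142869 transcripts in each of 8 libraries, made with HISAT2 and Cufflinks 2.2.1 on GRCm38.p6, per the submitters' processing notes. Annotation, filters and strand setting are not given in the sources used here.

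Transcripts were summed to 55358 genes by name. Depth was fitted to low FPKM values so that they came closest to whole fragments; 94.1 to 95.2% of them then lay within 0.1 of a whole number, and fragment numbers in the text cover counting only. The 13693 genes that reached 1 FPKM in 2 or more libraries entered a limma model (version 3.58.1, R 4.3.3) of log2(FPKM + 1) with 4 group means and 4 residual degrees of freedom; its variance prior followed the mean level, and p-values were adjusted by Benjamini-Hochberg. All 8 libraries differed from each other in their values. The procedure was tested on simulated data. Promoter windows came from RefSeq on GRCm38.p6 and gene positions from GENCODE M21. Files were read with Python 3.11.15 and pandas 2.3.3.

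The members and lists were chosen with earlier results of these data known. All members are named; of each pathway list, at most 3 called genes with the largest change in a comparison, besides Kremen1, Lrp5, Lrp6 and Axin2, not all of which are given here; and for each tested member the 2 genes of highest correlation, of which 1 is not reported here. Alternatives were 3 scalings, pseudocounts of 0.1 and 5, no filter and a filter of 5 FPKM, no trend, a block for the replicate number, a fit to the compared groups alone, the omission of each library in turn and, added after seeing the data, the first transcript alone.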

Additional observations from a re-analysis of the deposited data

Results flagged for a closer look

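The change with IL-6 differed between KO and WT, by a test of the difference itself, for 3 antagonist genes. The change in KO minus that in WT was -1.01 for Sfrp1 (0.16 in KO and 1.17 in WT), 1.07 for Sfrp2 (-0.27 in KO and -1.34 in WT) and 1.35 for Dkk2 (0.19 in KO and -1.16 in WT). For Sfrp2 the call was lost without any 1 of the 4 WT libraries or untreated KO library 1 (adjusted p of 0.0547 to 0.0714) and without the expression filter (0.0778). With 2 libraries in a group, single libraries could not be checked against their own group.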

How the results depend on the processing

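Of 25 member values (5 genes in 5 comparisons), 19 kept their direction and their side of the threshold under each of 18 or 19 alternatives; the exceptions were Sfrp4, Dkk3 and Sfrp2. For Sfrp2 between KO and WT under IL-6, whose main value of -0.03 had not passed, the sign turned with equal totals (0.056), the first transcript alone (0.15), without replicate 2 of WT with IL-6 (0.015) and without replicate 1 of KO with IL-6 (0.17), and none of these passed; leaving out 1 library gave -0.24 to 0.17. The number of members called for IL-6 in WT was 4, or 3 without any 1 WT library; for the difference between IL-6 changes it was 3, with a range of 2 to 3 on leaving out a library, 2 without the filter and 4 with equal totals or a pseudocount of 0.1 or 5. Same-numbered libraries did not deviate together (correlations of -0.0973 to 0.0549 between groups), so the numbers are not taken as pairs; with the replicate block the members called stayed at 4, 0, 5, 4 and 3 for IL-6 in WT, IL-6 in KO, the untreated genotypes, the genotypes under IL-6, and the difference. Over all genes, 2150 calls for IL-6 in WT became 938 with only the WT groups and 1165 to 1312 without 1 WT library. The 830 calls for the difference became 521 without the filter and 383 to 523 without 1 library, and the 3 for IL-6 in KO became 7 without the filter, 5 with a filter of 5 FPKM, 0 with only the KO groups and 0 to 4 without 1 library. With equal totals, 55.1% of the calls for the difference were higher, against 41.9% as deposited. Depth limits Sfrp4 in WT, Dkk3 in KO, Frzb, Wif1 and Sfrp5, which rest on few fragments. The causes were not tested.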
